A study of Mus musculus with 9 samples.

Results

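The gene set described here holds 38 mouse genes that write, erase or read DNA methylation and histone marks: the DNA methyltransferases and Tet oxidases, the Polycomb complexes PRC2 and PRC1 with the BAP1 deubiquitinase, and histone methyltransferases, demethylases, acetyltransferases and deacetylases. They were chosen as a list of symbols by function, with earlier results of these data known. All 38 were found among the 35225 genes joined between the LSK and the neutrophil count tables, 35 of them under the same symbol in every table; Kmt2a, Kmt2c and Kmt2d stood under older symbols in 1 LSK table and were matched by Ensembl identifier. All 38 passed the filter on low counts in each comparison below.

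The libraries are bulk RNA-seq of bone marrow cells from mice aged 4 to 12 weeks. LSK cells are the sorted marrow fraction that holds stem and early progenitor cells, and neutrophils were sorted as Ly6G+ cells. Wild-type mice were Spop(+/+) and knockout mice Spop(D/D), where Spop encodes the substrate adaptor of a cullin-RING ubiquitin ligase; the driver of the deletion, the number of mice per library and any treatment are not stated in the labels. LSK cells gave 2 libraries of each genotype, and neutrophils gave 2 from the wild type and 3 from the knockout. The library titled LSK knockout 2 carries a neutrophil entry in its cell type label, but all 4 LSK libraries held 0 reads of the neutrophil marker Ly6g, against 2837 to 19224 in the neutrophil libraries. LSK libraries held 18827892 to 20264417 reads counted on genes and neutrophil libraries 21012702 to 27434086. By depth alone 3 reads, the limit used for detection, corresponded to 0.109 to 0.159 CPM, reads scaled to the depth of the library. The CPM below also hold TMM factors, a scaling between libraries, so the limit lies elsewhere on that scale. In neutrophil knockout library 3, for example, 1 read of Tet1 stood at 0.0612 CPM.

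DNA methylation at CpG sites is copied after replication by Dnmt1, laid down anew by Dnmt3a and Dnmt3b, and oxidised by the Tet enzymes. PRC2 methylates histone H3 at lysine 27 through Ezh1 or Ezh2 with Eed and Suz12, and PRC1 binds that mark through Cbx proteins and ubiquitinates histone H2A through Ring1 or Rnf2. In blood these enzymes bear on stem cell self-renewal and differentiation, and Dnmt3a, Tet2, Asxl1 and Ezh2 are genes recurrently mutated in clonal and malignant myeloid disease.

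In LSK cells the knockout was set beside the wild type to ask how Spop loss changes transcript levels in early progenitors. Of the 38 genes, 4 were higher and 11 lower in the knockout (edgeR quasi-likelihood test, Benjamini-Hochberg adjusted p under 0.05). The higher genes were Dnmt1, Suv39h1, Eed and Ezh2, and the lower ones Tet1, Dnmt3b, Ezh1, Rnf2, Cbx2, Cbx7, Kmt2a, Kmt2c, Kmt2d, Crebbp and Kdm6b. The 15 calls made 39.5% of the 38 genes, and 42.2% of the 13008 genes tested were called, so the share of calls was close to that of all genes. By direction, 10.5% of the set was higher against 21.0% of all genes, and 28.9% was lower against 21.2%. The median log2 fold change was -0.11 in the set and -0.03 over all genes tested. With TMM factors 2738 of all genes were higher and 2756 lower, with upper-quartile factors 2207 and 3445, and in the set 4 and 11 became 4 and 12. In a fit of all 9 libraries, which shares the wider spread of the neutrophils, 0 of the 15 calls passed. Where an LSK library is left out below, its arm holds 1 library, which is assumed to vary like the other group, so a call kept or gained there is no sign of stability. The knockout and wild-type libraries did not overlap for 24 of the 38 genes (63.2%), 8 of them higher and 16 lower, where 72.9% of all genes tested did not overlap. Summed over the 38 genes the level was 3928 and 4069 CPM in wild-type cells and 4089 and 3959 CPM in the knockout, so the groups overlapped in the total while single genes moved apart.

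**Figure D1:**
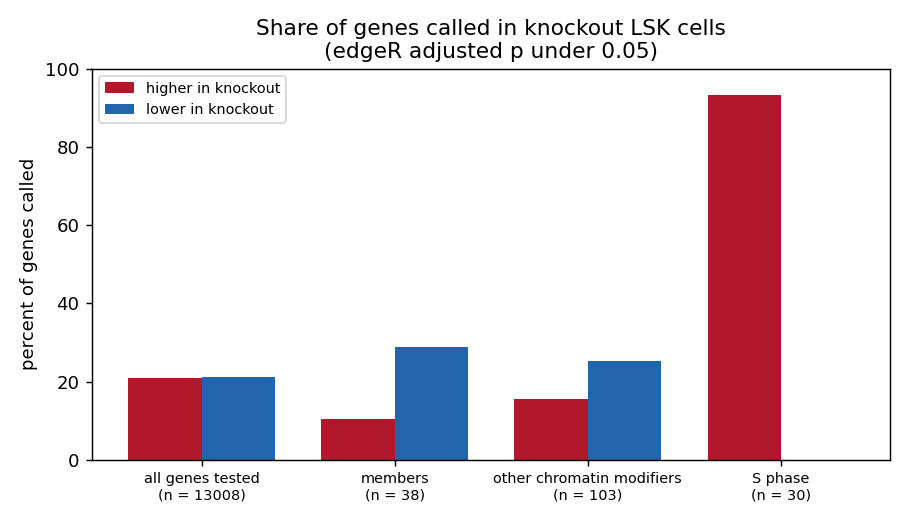
Bars give the percentage of genes called higher or lower in knockout LSK cells (edgeR, adjusted p under 0.05) among all 13008 genes tested, the 38 genes of the set, 103 other chromatin modifier genes and 30 S phase genes. The set had 10.5% higher and 28.9% lower, and the S phase genes 93.3% higher and 0 lower.

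Several other measures moved with genotype in the LSK libraries, and their part in the values below was not tested. Genes of S phase, the phase of DNA replication, were higher for 28 of 30 and lower for 0, with a summed level of 5384 and 5183 CPM in wild-type cells and 8843 and 9555 CPM in the knockout. Rrm2, a subunit of ribonucleotide reductase, was at 129 and 126 CPM in wild-type cells and at 383 and 427 CPM in the knockout (log2 fold change 1.66, SE 0.0970, edgeR adjusted p = 1.62e-07). Hells, a chromatin remodeller needed for DNA methylation, Cdc45, a part of the replicative helicase, and Cdc6, a licensing factor, were higher by log2 1.41, 1.33 and 1.19. Summed markers of LSK progenitors were at 5444 and 5161 CPM in wild-type cells and 3397 and 3616 CPM in the knockout, with the sort marker Kit at 990 and 1049 CPM against 605 and 644 CPM and the sort marker Ly6a at 170 and 157 CPM against 193 and 227 CPM. Summed macrophage and monocyte markers were at 127 and 165 CPM in wild-type cells and 377 and 496 CPM in the knockout, but the sum rested on few genes: 3 of these 10 markers were higher and 6 lower, with a median log2 fold change of -1.41. Neutrophil markers summed to 228 and 238 CPM against 348 and 287 CPM, with 3 of 10 higher, 2 lower and a median of -0.01. Erythroid markers (7 of 10 lower, 0 higher) were at 1137 and 1110 CPM against 416 and 541 CPM, and B cell markers (8 of 9 lower, 0 higher) at 223 and 207 CPM against 63.9 and 69.4 CPM, with Pax5 at 0 in both knockout libraries. In bulk RNA, fewer cells of a type and less RNA per cell cannot be told apart. Spop itself was at 380 and 390 CPM in wild-type and 312 and 306 CPM in knockout LSK cells (log2 fold change -0.32, edgeR adjusted p = 0.0118, and 0.0832 or 0.117 without wild-type library 1 or 2); the labels do not say which exons the deletion removes, so reads outside them check nothing.

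Among the enzymes of DNA methylation, the maintenance methyltransferase Dnmt1 rose and both the de novo enzyme Dnmt3b and the oxidase Tet1 fell. Dnmt1 lies on chromosome 9 (20907209 to 20959888, minus strand, GRCm38), and its level was 288 and 316 CPM without the deletion and 546 and 490 CPM with it. Both knockout libraries lay above both wild-type ones, and the fold was 1.72 (log2 0.78, 95% interval 0.57 to 0.99, edgeR adjusted p = 5.27e-05). Tet1, which oxidises methylated cytosine, was at 37.6 and 35.3 CPM in wild-type cells and 17.8 and 19.3 CPM in the knockout, 1.97-fold lower (log2 -0.97, interval -1.31 to -0.64, adjusted p = 0.000302). Dnmt3b was at 103 and 108 CPM in wild-type cells and 89.7 and 78.1 CPM in the knockout (log2 -0.32, adjusted p = 0.0331), a small shift whose call was lost without knockout library 2, wild-type library 1 or wild-type library 2 (adjusted p = 0.145, 0.109 and 0.186). The other members of these families did not pass the test. Dnmt3a, the main de novo enzyme of blood stem cells, was at 130 and 121 CPM against 123 and 117 CPM (log2 -0.06, interval -0.28 to 0.16). Tet2 was at 15.9 and 17.5 CPM against 19.1 and 18 CPM (log2 0.15, interval -0.24 to 0.54), and Tet3 had a log2 fold change of -0.10 (interval -0.40 to 0.20). Uhrf1, which brings Dnmt1 to newly replicated DNA and is not in the set, was at 134 and 132 CPM in wild-type cells and 288 and 295 CPM in the knockout (log2 1.14, SE 0.0920, adjusted p = 1.98e-06).

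In PRC2 the alternative catalytic subunits moved in opposite directions. Ezh1 (chromosome 11, 101191115 to 101226463, minus strand, GRCm38) fell from 91.4 and 95.1 CPM to 49.1 and 48.0 CPM in the knockout, 1.92-fold lower (log2 -0.94, interval -1.19 to -0.70, edgeR adjusted p = 3.64e-05). Ezh2 (chromosome 6, 47530139 to 47595341, minus strand) was at 118 and 108 CPM in wild-type cells and 147 and 142 CPM in the knockout, 1.28-fold higher (log2 0.36, interval 0.14 to 0.57, adjusted p = 0.0118). The groups did not overlap for either gene. The shared core subunit Eed was at 142 and 149 CPM in wild-type cells and 201 and 181 CPM in the knockout (log2 0.39, adjusted p = 0.00667). The calls of Ezh2 and Eed each hung on a wild-type library: the adjusted p of Ezh2 was 0.133 without wild-type library 2, and that of Eed 0.0834 without wild-type library 1. Suz12, the other core subunit, was at 165 and 170 CPM against 194 and 179 CPM (log2 0.15, interval -0.05 to 0.36), and Jarid2, which helps to bring PRC2 to its targets, had a log2 fold change of -0.17 (interval -0.44 to 0.11). In all, 2 of the 5 PRC2 genes were called higher, 1 lower, and 2 did not pass.

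A plain reading of the Ezh pair comes from the reads of both genes within the same library, divided by the length of their merged exons, where library scaling cancels. Wild-type libraries had Ezh2 to Ezh1 ratios of 1.43 and 1.27, and knockout libraries 3.34 and 3.30. The ratio was thus 2.46-fold higher in the knockout, a log2 difference of 1.30, with SDs of log2 0.123 in the wild type and 0.0107 in the knockout (n = 2 each). An exact permutation test of 2 libraries against 2 cannot pass 0.05, so the ratio has no test of its own. Leaving out any single LSK library gave log2 differences of 1.21 to 1.39.

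Promoter sequences are shown for Dnmt1, Ezh2 and Ezh1, as genes of the set that rose or fell with the S phase genes moving in the same libraries. Each window runs 5' to 3' on the gene's own strand from 250 bases before to 50 bases after a RefSeq start site (GRCm38.p6), and capitals mark letters of E2F-type sites, to which the factors that drive S phase genes bind. The letters searched on both strands were TTCCCGC and their variants TTGGCGC, then TTCGCGC and lastly TTGCCGC, and matches that overlap were counted each. The Dnmt1 window is chr9:20952574-20952873 (minus strand), 1 of 3 RefSeq windows of this gene, the Ezh2 window chr6:47594981-47595280 (minus strand) and the Ezh1 window chr11:101226414-101226713 (minus strand).
Dnmt1: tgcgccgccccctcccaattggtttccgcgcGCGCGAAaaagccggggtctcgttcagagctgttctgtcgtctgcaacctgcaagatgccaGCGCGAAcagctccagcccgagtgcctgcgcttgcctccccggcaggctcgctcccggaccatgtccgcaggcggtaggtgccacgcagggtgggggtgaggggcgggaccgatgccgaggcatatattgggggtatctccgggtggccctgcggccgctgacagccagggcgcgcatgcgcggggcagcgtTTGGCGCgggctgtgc
Ezh2: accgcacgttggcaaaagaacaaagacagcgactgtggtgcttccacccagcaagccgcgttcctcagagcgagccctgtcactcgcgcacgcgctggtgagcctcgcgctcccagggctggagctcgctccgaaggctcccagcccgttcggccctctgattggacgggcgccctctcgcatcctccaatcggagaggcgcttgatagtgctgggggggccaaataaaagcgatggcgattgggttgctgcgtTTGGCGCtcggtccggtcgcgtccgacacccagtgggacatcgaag
Ezh1: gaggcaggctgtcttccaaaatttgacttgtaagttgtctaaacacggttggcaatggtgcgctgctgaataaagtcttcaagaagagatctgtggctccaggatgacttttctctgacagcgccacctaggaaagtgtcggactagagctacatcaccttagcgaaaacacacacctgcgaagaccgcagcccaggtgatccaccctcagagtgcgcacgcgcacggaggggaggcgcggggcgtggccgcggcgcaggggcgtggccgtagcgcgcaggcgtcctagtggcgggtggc
The Dnmt1 window held matches 219 and 158 bases before its own start and 34 bases after it. The Ezh2 window held 1 match 4 bases after the start, and the Ezh1 window held none. Windows were given for 32 of the 38 genes. Such letters stood in a window of 6 of these 32 genes (18.8%), against 10.9% of all 27025 genes with windows, 19.3% of the 9920 that were tested in LSK cells and 17 of 24 S phase genes (70.8%). Among the genes of the set called higher they stood in 3 of 4 (Dnmt1, Ezh2 and 1 of 2 windows of Suv39h1, but no window of Eed). Among those called lower they stood in 0 of 9, and among those not called in 3 of 19 (Asxl1, Asxl2 and Suz12). The Dnmt1 windows not printed, chr9:20952930-20953229 and chr9:20959839-20960138, held none. Both lie upstream of the printed window on the minus strand. All 3 Dnmt1 matches therefore lie downstream of both other starts, within the gene. The 4 higher genes had 7 windows and the 9 lower genes 9. The letters CCAAT stood in 4 of 4 higher, 1 of 9 lower and 7 of 19 uncalled genes, against 43% of genes tested in LSK cells. The letters TTTGAA stood in 2 of 4, 2 of 9 and 2 of 19, against 14.4%. A match of letters describes the sequence and shows no binding, and the absence of a match says only that these letters are not in the window.

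Among the PRC1 genes every call was lower. Rnf2, the main H2A ubiquitin ligase subunit, was at 208 and 209 CPM in wild-type cells and 132 and 147 CPM in the knockout, 1.5-fold lower (log2 -0.58, interval -0.79 to -0.37, edgeR adjusted p = 0.000466). Cbx7, a chromodomain subunit tied to stem cell self-renewal, was at 16.3 and 17.8 CPM in wild-type cells and 8.50 and 10.3 CPM in the knockout, 1.82-fold lower (log2 -0.86, interval -1.31 to -0.41, adjusted p = 0.00507). Cbx2, a related chromodomain subunit, was at 51.8 and 60.9 CPM against 43.4 and 43.6 CPM (log2 -0.37, adjusted p = 0.0348), and its call was lost with DESeq2 (0.0602) and without knockout library 1 (0.0814) or wild-type library 2 (0.303). For all 3 genes the groups did not overlap. The other members did not pass: the log2 fold change was -0.41 for the chromodomain gene Cbx8 (adjusted p = 0.0874), -0.26 for the ligase subunit Ring1, -0.18 for the self-renewal factor Bmi1 and -0.18 for Kdm2b, which brings a PRC1 variant to CpG islands. Ring1 passed without knockout library 2 (adjusted p = 0.0303). The BAP1 complex removes the mark that PRC1 adds, and none of its genes here passed, with log2 fold changes of -0.14 for Bap1, -0.19 for Asxl1 and -0.05 for Asxl2. Asxl1 was at 102 and 119 CPM in wild-type cells and 96.9 and 97.5 CPM in the knockout, and Bap1 at 223 and 216 CPM against 198 and 198 CPM, so in both the groups lay apart by little.

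All 3 MLL-family methyltransferases of the set, which methylate histone H3 at lysine 4, were lower in the knockout. Kmt2c was at 76.6 and 82.7 CPM in wild-type cells and 45.5 and 36.9 CPM in the knockout, 1.93-fold lower (log2 -0.95, interval -1.24 to -0.66, edgeR adjusted p = 0.000112). Kmt2d, its close relative at enhancers, was at 88.8 and 112 CPM in wild-type cells and 69.1 and 57.7 CPM in the knockout (log2 -0.66, interval -0.96 to -0.36, adjusted p = 0.00232). Kmt2a, the gene known as MLL in leukaemia, was at 50 and 59.5 CPM in wild-type cells and 35.4 and 20.1 CPM in the knockout (log2 -0.98, interval -1.56 to -0.40, adjusted p = 0.0153). The knockout libraries differed from each other most in this gene of the 3: without knockout library 2 the log2 fold change of Kmt2a was -0.63, without knockout library 1 it was -1.41, and without wild-type library 2 the call was lost (adjusted p = 0.0994). Men1, the cofactor of Kmt2a, was at 146 and 159 CPM against 144 and 151 CPM (log2 -0.05, interval -0.26 to 0.16). The lysine 36 methyltransferase Nsd1 and the lysine 79 methyltransferase Dot1l did not pass either, at log2 -0.03 and -0.11.

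Of the lysine 9 methyltransferases of histone H3, which mark silent chromatin, Suv39h1 rose and the Ehmt pair did not pass. Suv39h1 was at 106 and 105 CPM in wild-type cells and 134 and 168 CPM in the knockout, 1.43-fold higher (log2 0.52, interval 0.26 to 0.77, edgeR adjusted p = 0.00391). Without knockout library 2 its log2 fold change was 0.34. Reads of Suv39h1 are uncertain in part, because 14.6% of its exon bases are shared with Gm14820 on the opposite strand and the library kit does not keep the strand; among the other called genes that share was at most 6.82% (Eed). Ehmt1 and Ehmt2, which act as a pair, had log2 fold changes of 0.04 (interval -0.17 to 0.25) and 0.03 (interval -0.19 to 0.26). Of the demethylases, Kdm6b, which removes methyl groups from lysine 27, was at 6.80 and 7.60 CPM in wild-type cells and 3.75 and 4.31 CPM in the knockout (log2 -0.84, adjusted p = 0.0322). The level was low and the call was unsteady, being lost with DESeq2 (adjusted p = 0.0721). It was also lost without knockout library 1, wild-type library 1 or wild-type library 2, at log2 fold changes of -0.70, -0.91 and -0.75. Kdm1a, the lysine 4 demethylase LSD1, was at 166 and 183 CPM against 166 and 169 CPM (log2 -0.06, interval -0.27 to 0.15).

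Of the acetylation genes, the acetyltransferase Crebbp fell and its paralogue Ep300 did not pass. Crebbp was at 62.3 and 75.6 CPM in wild-type cells and 49.6 and 46.8 CPM in the knockout, 1.43-fold lower (log2 -0.52, interval -0.80 to -0.23, edgeR adjusted p = 0.00668, and 0.114 without wild-type library 2). Ep300 was at 73.2 and 90.7 CPM against 79.8 and 72.2 CPM (log2 -0.11, interval -0.39 to 0.17), and its groups overlapped. The class I deacetylases Hdac1, Hdac2 and Hdac3 had log2 fold changes of 0.19, 0.18 and 0.08 and did not pass, although for Hdac1 and Hdac2 both knockout libraries lay above both wild-type ones. Hdac2 passed without knockout library 2 (adjusted p = 0.0431). Phf6, a zinc finger factor mutated in leukaemia, was at 198 and 182 CPM against 191 and 211 CPM (log2 0.08, interval -0.13 to 0.29).

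**Figure D2:**
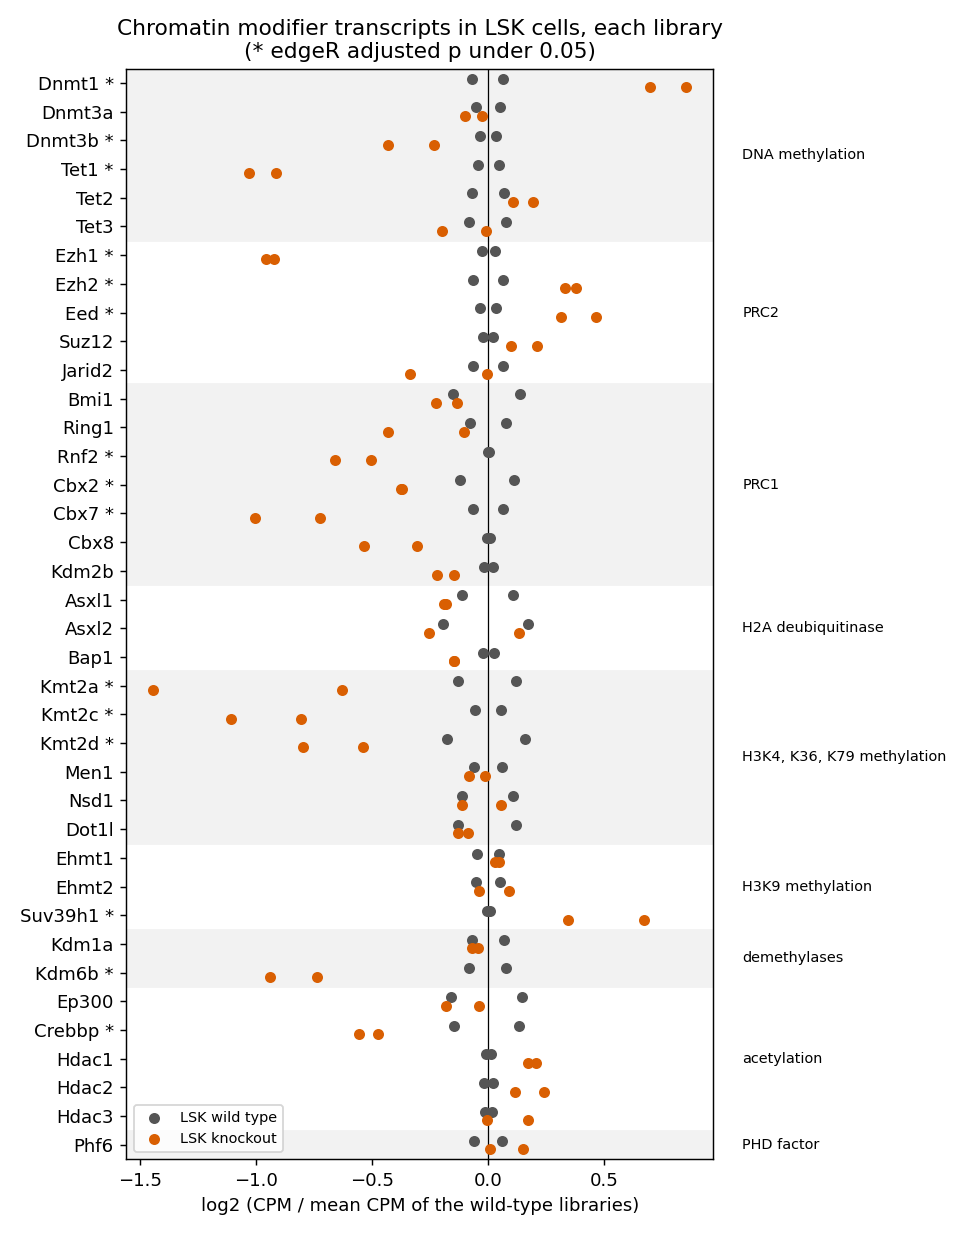
Each point is 1 LSK library, and the axis is log2 of its CPM over the mean CPM of the wild-type libraries, for the 38 genes grouped by role; stars mark edgeR adjusted p under 0.05. Both knockout points lie to the right of the wild-type ones for Dnmt1 (546 and 490 against 288 and 316 CPM) and to the left for Ezh1 (49.1 and 48.0 against 91.4 and 95.1 CPM), while those of Ep300 and Ehmt2 overlap.

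The length of the genes moved with the direction of the calls. Of the 11 genes in the set with at least 13000 bases of merged exons, a limit chosen after the data were seen, 5 were lower (Tet1, Kmt2a, Kmt2c, Kmt2d and Crebbp), 0 were higher and 6 did not pass (Dnmt3a, Tet2, Tet3, Asxl2, Nsd1 and Ep300). Over all 507 tested genes of that length, 28.2% were lower and 11.8% higher, with a median log2 fold change of -0.16. The part of length in the lower levels of the 5 genes was not tested.

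Across the 12 pairs of related genes taken from the set, ratios within a library showed where paralogues shifted against each other in LSK cells. Tet1 stood at 2.58 and 2.20 times Tet2 per exon base in the wild type and at 1.02 and 1.17 times in the knockout, a log2 difference of -1.13. Cbx2 over Cbx7 went from 4.85 and 5.22 to 7.78 and 6.47 (log2 difference 0.50), and Ep300 over Crebbp from 1.11 and 1.14 to 1.53 and 1.46 (0.41). The other ratios whose groups lay apart were Cbx8 over Cbx7 (0.45), Ring1 over Rnf2 (0.32), Kmt2c over Kmt2d (-0.30), Dnmt3a over Dnmt3b (0.27) and Tet3 over Tet2 (-0.26). The ratios of Asxl1 to Asxl2, Hdac1 to Hdac2 and Ehmt1 to Ehmt2 overlapped between the groups, with differences of -0.14, 0.01 and 0.01. The Ezh pair, at 1.30, had the widest shift of the 12, and none of these ratios has a test.

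**Figure D3:**
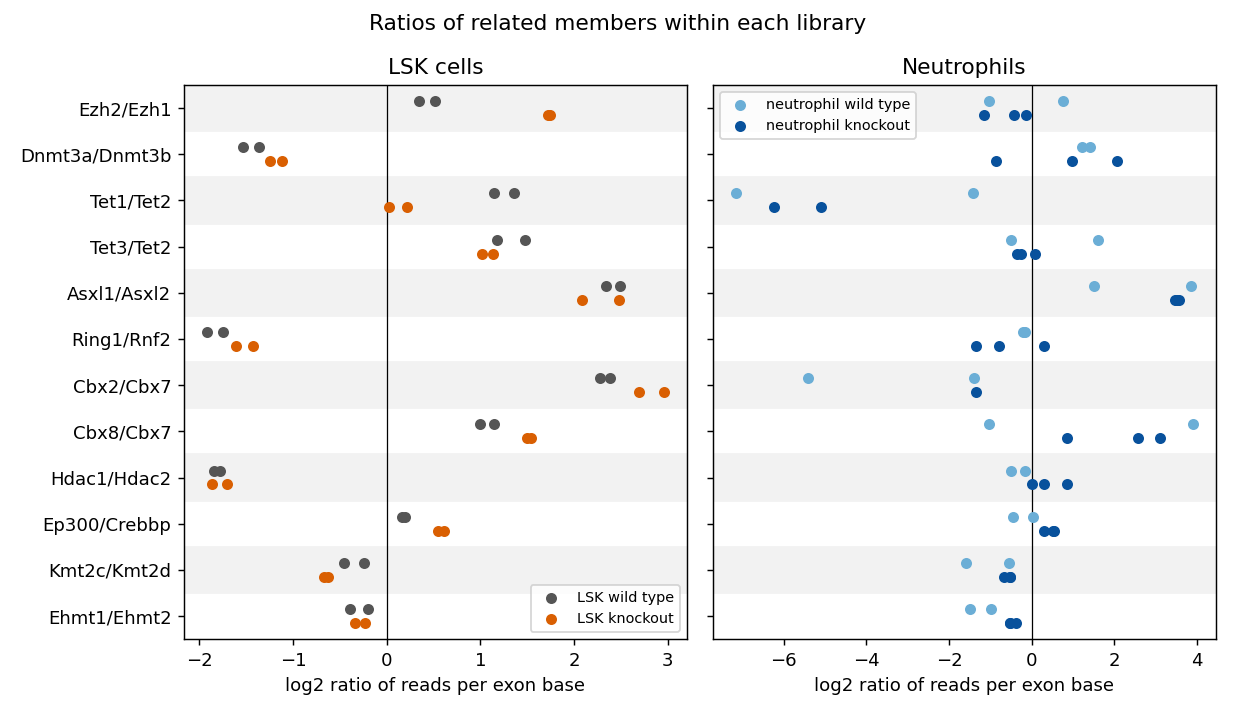
Points give, for each library, the log2 ratio of reads per exon base of the 2 genes named, in LSK cells (left) and neutrophils (right). A ratio resting on 3 reads or fewer of a gene is not drawn. In LSK cells Ezh2/Ezh1 is higher and Tet1/Tet2 lower in both knockout libraries, and in neutrophils most groups overlap.

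Beyond the set, 103 other tested chromatin modifier genes, listed by function, gave the setting in LSK cells: 16 were higher and 26 lower, together 40.8%, with a median log2 fold change of -0.08; upper-quartile factors gave 13 and 39. Without wild-type library 2 the counts were 12 and 15. By class, and with no test between classes, the demethylases had 7 of 14 lower and 1 higher (median -0.34), and the deacetylases and their corepressors 6 of 21 lower and 0 higher (median -0.21), where 21.2% of all genes tested were lower and 21.0% higher. Genes around DNA methylation had 3 of 11 higher and 0 lower, other Polycomb genes 3 of 21 higher and 5 lower, COMPASS subunits of the lysine 4 complexes 2 of 13 higher and 3 lower, acetyltransferases 3 of 10 in each direction, and other methyltransferases 4 of 13 higher and 2 lower.

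Named by the smallest p in that list beside Uhrf1, 6 genes were higher. Idh1, which makes the cofactor of Tet and Kdm enzymes, was at 62.6 and 59.7 CPM in wild-type cells and 129 and 164 CPM in the knockout (log2 1.26). The histone acetyltransferases Hat1 and Kat2a rose by log2 0.72 and 0.61, the arginine methyltransferase Prmt5 by 0.71, the lysine 36 methyltransferase Nsd2 by 0.68 and the Polycomb-associated L3mbtl2 by 0.76. The other 7 genes were lower. Phf1, an accessory subunit of PRC2, was at 22.7 and 23.3 CPM in wild-type cells and at 4.69 and 4.31 CPM in the knockout, 5.11-fold lower (log2 -2.35, SE 0.209, edgeR adjusted p = 3.98e-06), a wider change than that of any PRC2 gene in the set. The deacetylases Hdac11, Hdac9 and Sirt3 had log2 fold changes of -2.06, -1.30 and -0.88, and the demethylases Kdm5b, Kdm3a and Kdm7a -0.85, -0.84 and -0.78.

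In neutrophils the same contrast of genotype gave 0 calls in the set, and also 0 of all 12836 genes tested (0%) with edgeR. At an unadjusted p under 0.05 there was 1 gene of the set, Ehmt2, and 1787 of all genes; DESeq2 called 0 genes of the set and 891 in all. The median log2 fold change was -0.03 in the set and 0.02 over all genes. Neutrophil libraries of a group stood far apart. Wild-type library 2 had summed B cell markers of 1974 CPM, against 77.1 CPM in wild-type library 1 and 3.52 to 10.6 CPM in the knockout, MHC class II genes of 25483 CPM against 647 and 41.2 to 104 CPM, and neutrophil markers of 38850 CPM against 224076 to 674654 CPM in the other 4. That library was also highest in T and NK cell markers (1067 CPM, against 40.6 to 191 CPM in the others). The same held for macrophage and monocyte markers (1335 against 136 to 493 CPM) and LSK progenitor markers (639 against 62.4 to 337 CPM). Knockout library 3 had erythroid markers of 18024 CPM, against 3.91 to 3601 CPM in the others. Without these 2 libraries 1 wild-type library was left, and 0 genes were called in the set and 0 over all genes, which says nothing about stability. Spop was at 135 and 194 CPM in wild-type cells and 158, 178 and 210 CPM in the knockout neutrophils, so its groups overlapped.

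Single genes of the set in neutrophils show how wide that spread was. Dnmt1 was at 118 and 28.5 CPM in wild-type cells and 139, 83.4 and 42.1 CPM in the knockout (log2 0.27, interval -1.43 to 1.97). Ezh1 was at 23.9 and 31.6 CPM against 35.7, 37.7 and 26.2 CPM (log2 0.26, interval -0.61 to 1.13), and Ezh2 at 36.4 and 13.8 CPM against 23.7, 15.1 and 21.5 CPM (log2 -0.32, interval -1.49 to 0.85). The intervals of Dnmt1 and Ezh2 hold the changes measured in LSK cells, while the lower bound of the Ezh1 interval, -0.61, lies above the LSK change of -0.94. Cbx7 was at 1.85 CPM in wild-type library 1 and at 1.13, 3.0 and 3.06 CPM in the knockout. It was at 21.5 CPM in wild-type library 2, the library with markers of B cells, progenitors and other cells. Kmt2a and Bmi1 were also higher in that library, at 11.6 and 35.8 CPM and at 2.03 and 11.5 CPM in wild-type libraries 1 and 2, against 5.38 to 18.6 CPM and 4.74 to 5.38 CPM in the knockout.

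The neutrophil groups did not overlap for 8 of the 38 genes (21.1%), against 34.5% of all genes tested. Ehmt2 was at 34.1 and 38.4 CPM in wild-type cells and 19, 22.1 and 11.1 CPM in the knockout (log2 -1.06, interval -2.02 to -0.09, edgeR adjusted p = 0.322). Dnmt3a was at 17 and 25.1 CPM against 8.45, 14 and 3.49 CPM (log2 -1.28, interval -2.70 to 0.13), and Kdm2b at 14 and 9.46 CPM against 7.28, 3.44 and 4.77 CPM (log2 -1.18, interval -2.38 to 0.01). Ring1, Hdac2, Dnmt3b and Cbx2 were the other genes below the wild type in every knockout library, the last at 13 and 11 reads against 8, 2 and 0 reads, close to the detection limit. Ep300 was the single gene above it, at 63.5 and 46.4 CPM in wild-type cells and 117, 119 and 70.6 CPM in the knockout (log2 0.90, interval -0.09 to 1.88, adjusted p = 0.396). Within libraries, Ep300 over Crebbp was 1.03 and 0.729 in the wild type and 1.43, 1.23 and 1.44 in the knockout, so that ratio was higher in the knockout in both populations, with no test. Ezh2 over Ezh1 was 1.69 and 0.486 in the wild-type neutrophils and 0.739, 0.447 and 0.914 in the knockout, and the groups overlapped.

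Whether the knockout effect differed between the populations was tested as an interaction over all 9 libraries. None of the 38 genes passed with edgeR, where 0.0289% of all 13820 genes did (4 genes). At an unadjusted p under 0.05 there were 3 of the 38 genes and 2173 of all 13820, so the set held no excess. The largest difference of the 3 was that of Ezh1, whose effect was higher in neutrophils than in LSK cells by log2 1.16 (interval 0.28 to 2.04, edgeR adjusted p = 0.235). DESeq2 called this gene, the only one of the set, at log2 1.26 (adjusted p = 0.0273). Its calls over all genes were not counted for this contrast, so that call has no background to be read against. Kmt2c had a difference of log2 1.12 (edgeR adjusted p = 0.283) and Ehmt2 of -1.13 (0.297). With edgeR the 2 effects were not shown to differ for any gene of the set. The intervals were wide, for example -2.78 to 1.66 for Dnmt1 and -2.13 to 0.65 for Ezh2.

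**Figure D4:**
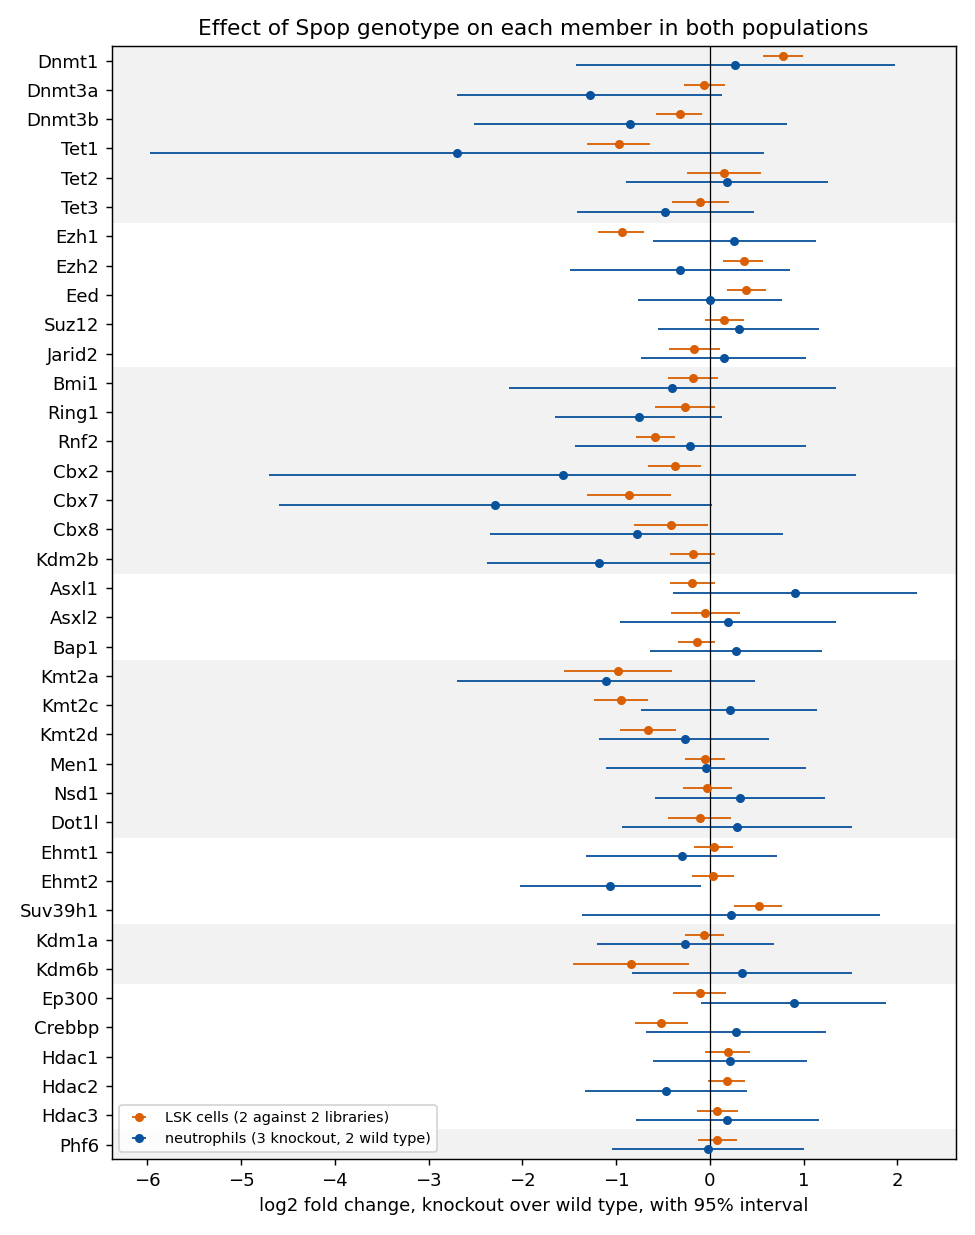
Each point is a gene of the set with its log2 fold change, knockout over wild type, in LSK cells and in neutrophils; bars are 95% intervals. The neutrophil intervals are several times as wide as the LSK ones, and in LSK cells Dnmt1 (0.78), Suv39h1 (0.52), Eed (0.39) and Ezh2 (0.36) are the genes called higher.

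The populations were also set against each other within a genotype, to describe where these genes are transcribed along myeloid maturation. The cell population and the count table it came from cannot be told apart here, since the tables list different sets of genes. Values below are CPM scaled over all 9 libraries. In the wild type 3 of the 38 genes were higher in neutrophils and 8 lower (28.9% called, against 25.3% of all 13820 genes tested), with 7.89% higher against 13.8% of all genes and 21.1% lower against 11.5%. The median log2 difference, neutrophils minus LSK cells, was -0.33 in the set and -0.01 over all genes. Markers of other cells were also higher in the wild-type neutrophils, 8 of 10 for macrophages and monocytes, 6 of 10 for T and NK cells, 5 of 7 for MHC class II and 4 of 10 for B cells, and their part in these differences was not tested.

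Higher in wild-type neutrophils were Kdm6b, Tet2 and Crebbp. Kdm6b was at 4.06 and 4.57 CPM in LSK cells and 44.7 and 19.8 CPM in neutrophils, 7.47-fold higher (log2 2.90, interval 1.72 to 4.08, edgeR adjusted p = 0.00792). Tet2 was at 9.51 and 10.5 CPM in LSK cells and 19.4 and 43.7 CPM in neutrophils (log2 1.65, adjusted p = 0.0233, and log2 0.97 without neutrophil wild-type library 2). Crebbp was at 37.2 and 45.5 CPM against 94.4 and 93.2 CPM (log2 1.18, edgeR adjusted p = 0.0446). Its call was lost without the filter on low counts (edgeR adjusted p = 0.0752) and without neutrophil knockout library 1 (0.0617).

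Lower in wild-type neutrophils were Dnmt3b, Cbx2, Phf6, Bmi1, Rnf2, Hdac2, Suz12 and Bap1. Dnmt3b was at 61.2 and 64.7 CPM in LSK cells and 3.62 and 4.48 CPM in neutrophils, 15.5-fold lower (log2 -3.96, interval -4.80 to -3.12, edgeR adjusted p = 0.000763). Cbx2 was at 31.0 and 36.6 CPM against 0.746 and 0.513 CPM (log2 -5.74, adjusted p = 0.00519), and Phf6 at 118 and 110 CPM against 19.1 and 29.0 CPM (log2 -2.25, adjusted p = 0.00469). Bmi1 was at 54.1 and 44.6 CPM in LSK cells and 3.27 and 17.8 CPM in neutrophils, the higher value in the library with markers of B cells, progenitors and other cells. Its log2 difference of -2.23 (adjusted p = 0.0415) was -1.52 without neutrophil wild-type library 1 and -3.89 without library 2. Rnf2 and Suz12 had log2 differences of -1.56 and -1.27, Hdac2 of -1.40 and Bap1 of -1.27. The core subunit Eed was at 85.0 and 89.9 CPM against 83.9 and 90.0 CPM (log2 -0.01, interval -0.55 to 0.53). Calls of Dnmt3b, Cbx2 and Phf6 held under each alternative run, and leaving out either wild-type LSK library left these 3 alone. Without wild-type library 2 and knockout library 3 of the neutrophils, the wild-type arm was a single library with the spread taken from the other groups. In that fit 21 genes were called, 8 higher and 13 lower, and Cbx7 was at log2 -1.69, where with all libraries it was at 0.83 and not called.

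In the knockout, 22 of the 38 genes differed between the populations (57.9%, against 48.8% of all genes), 7 higher and 15 lower in neutrophils. This contrast was added after the data were seen; it uses no library of the wild-type one, but both share 1 estimate of the spread. All 11 genes called in the wild type were called in the same direction, and 35 of 38 genes had the same sign. The matching shares over all genes were not counted, so this agreement cannot be read as particular to the set. Kdm6b was at 2.24 and 2.63 CPM in knockout LSK cells and 37.1, 55.4 and 26.2 CPM in knockout neutrophils (log2 4.02, edgeR adjusted p = 0.00104), and Dnmt3b at 53.4 and 47.6 CPM against 2.08, 1.59 and 2.87 CPM (log2 -4.54, adjusted p = 0.000260). Among the 11 further calls, Ep300 (log2 1.79), Kmt2c (1.26), Kmt2d (1.19) and Ezh1 (0.80) were higher in neutrophils, and Tet1 (-4.42), Dnmt3a (-2.43), Kdm2b (-2.29), Ehmt1 (-1.54), Ezh2 (-1.50), Ehmt2 (-1.34) and Kdm1a (-1.07) lower. Without LSK knockout library 1 or 2 the count was 11 or 10.

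**Figure D5:**
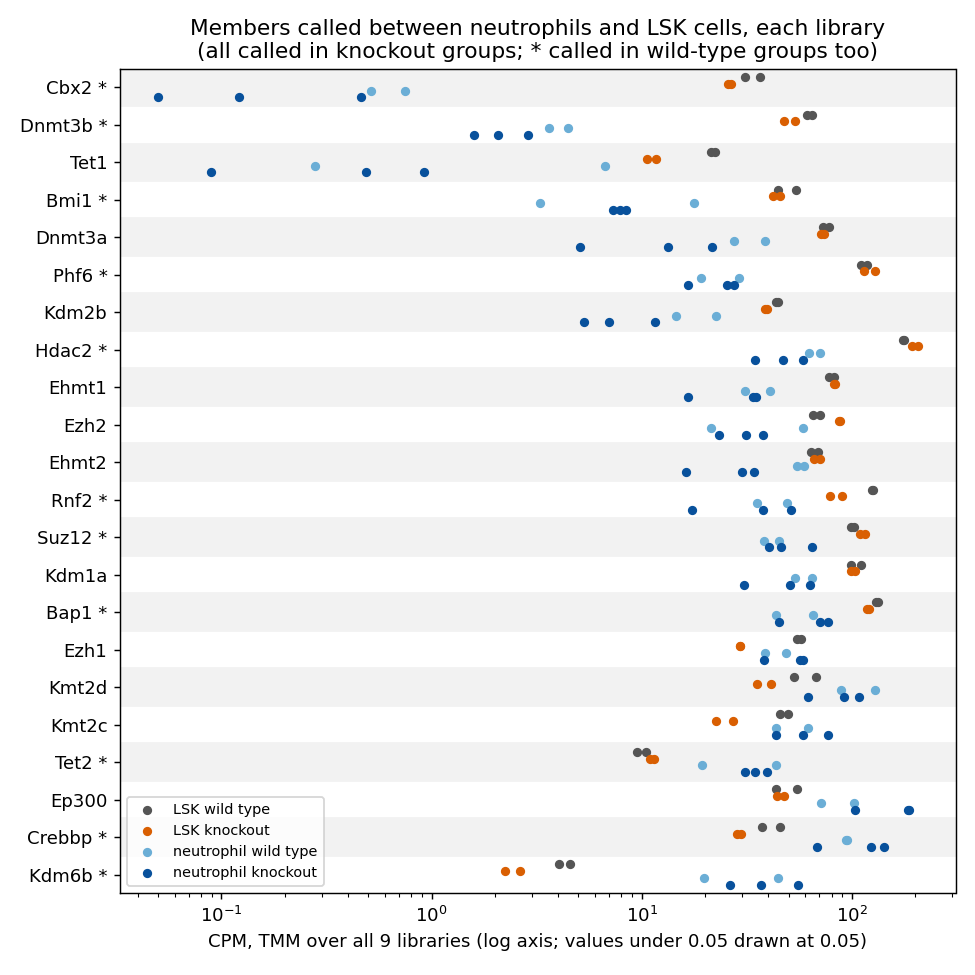
Points give the level of the 22 genes called between knockout populations in each of the 9 libraries, as CPM on a log axis with values under 0.05 drawn at 0.05; stars mark genes also called in the wild type. Neutrophil points lie below the LSK ones for Cbx2 and Dnmt3b and above them for Kdm6b and Tet2 in both genotypes.

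From the other chromatin modifier genes, 26 of 103 (25.2%) differed between the wild-type populations. The 6 with the smallest p were Setd1b (log2 2.73), Hdac4 (2.26) and Sirt7 (1.97), higher in neutrophils, and Sirt3 (-3.11), Pcgf3 (-2.41) and Kdm3a (-1.52), lower. In the knockout 5 of these 6 were called in the same direction; Kdm3a was not, at log2 0.09.

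Levels per exon length place the genes against each other within wild-type cells. In LSK cells the order by CPM per kilobase of merged exons began with Hdac2 (65.4), Rnf2 (50.5), Bap1 (46.8), Dnmt1 (40.9) and Men1 (39.8) and ended with Cbx7 (2.63), Tet3 (2.50), Tet1 (2.36), Kdm6b (1.04) and Tet2 (0.991). In neutrophils it began with Eed (14.4), Hdac3 (12.4), Dnmt1 (9.92), Hdac2 (9.39) and Men1 (9.22) and ended with Asxl2 (0.870), Dot1l (0.797), Dnmt3b (0.504), Tet1 (0.139) and Cbx2 (0.0934). The Dnmt1 mean in neutrophils rests on libraries at 118 and 28.5 CPM, so its place in that order is not fixed.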

How the data were processed

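Per the labels' protocols, RNA was isolated with the RNeasy Micro kit and libraries made with SMART-Seq v4. Tools in the submitters' processing notes are STAR, featureCounts, bcl2fastq and DESeq2, and builds mm10 and GRCm38; their versions and the annotation are not stated there. The authors deposited raw counts per gene for each population, which were tested, and normalized values (unit: signal), which equal counts divided by 1 factor per library and were used to find the genes by symbol. LSK genes carry Ensembl identifiers and neutrophil genes symbols; they were joined through GENCODE M21, and reads on LSK genes without a symbol were at most 0.401%.

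Counts were fitted within each population with edgeR 4.0.16 (R 4.3.3, limma 3.58.1): TMM factors, its filter by group, robust quasi-likelihood F test, Benjamini-Hochberg adjustment over all genes tested, threshold 0.05. Interaction and population contrasts came from 1 fit of all 9 libraries. Levels are TMM-scaled CPM, errors are standard errors of log2 fold changes, 95% intervals or SDs. DESeq2 1.42.0, RLE and upper-quartile factors, no filter, a replicate block, a fit of all libraries and leaving out each library were alternatives. The code was tested on simulated data. Counts of replicates differed beyond sampling noise, with a chi-square per gene of 9.87 or more. No label says that they came from separate mice, so p-values measure only how these libraries vary, possibly for technical reasons.

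The genes, lists and tests were chosen with earlier results of these data known. All 38 genes are accounted for; of other chromatin modifiers the text names up to 14 with the smallest p in LSK cells and 6 between wild-type populations, and of S phase genes 4. Of 106 symbols of other modifiers listed, 103 were tested in LSK cells: Setd8 is an older name of Kmt5a, which was tested, Asxl3 did not pass the filter, and Prmt1 was not analysed here in that table. Promoters are from RefSeq GRCm38.p6.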

Additional observations from a re-analysis of the deposited data

How the results depend on the processing

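The replicate block, with libraries of the same number paired, left 15 genes of the set called in LSK cells and 0 in neutrophils, gave 12 between the wild-type populations and raised all neutrophil calls from 0 to 334. The deviations of same-numbered libraries from their group means had correlations of 0.00393 in LSK cells and 0.239 and -0.0241 in neutrophils. With 2 libraries in a group the deviations mirror each other, so these values do not decide whether the libraries were paired. In the fit of all 9 libraries, where the wide neutrophil spread enters the LSK test, LSK calls fell to 0 in the set, 0 of all genes, 0 of the other modifiers and 0 of the S phase genes, while neutrophil calls over all genes were 563. Those were 891 with DESeq2 and 334 without the filter. DESeq2 called 1 gene of the set in the interaction, where its calls over all genes were not counted. Upper-quartile factors moved the LSK split over all genes to 2207 higher and 3445 lower (2738 and 2756 with TMM), that of the set to 4 and 12, and the median of all genes by -0.14 in neutrophils; RLE factors moved it by 0.11 between knockout populations.

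Leaving out single libraries gave 9 to 16 calls of the set in LSK cells (9 without wild-type library 2), 3524 to 5718 of all genes (3524 without wild-type library 1), 27 to 43 of the other modifiers (27 without wild-type library 2) and 25 to 29 of the S phase genes. In neutrophils it gave 0 to 601 of all genes (601 without wild-type library 1). The Ezh2 to Ezh1 difference there ran from -1.34 to 0.47, without wild-type library 2 or 1. Between wild-type populations the set had 3 calls without either wild-type LSK library and 6 without either knockout LSK library, and all genes 354 and 383 or 1633 and 1632; without neutrophil wild-type library 2 and knockout library 3 together, chosen after seeing the data and leaving 1 wild-type library, there were 21 and 7754, and Cbx7 (0.83) turned to -1.69; it ran from -1.75 without neutrophil wild-type library 2 to 1.66 without wild-type library 1. Between knockout populations single omissions gave 10 to 24 and 3090 to 8199. Over 400 pairs of a gene (the set, Spop and Uhrf1) and an alternative in LSK cells, 363 stayed on the same side of the threshold, 33 lost and 4 gained a call. Only a called gene could lose a call, and 15 of the 38 genes of the set were called, so the 363 include many pairs without a call to lose. At this number of libraries neutrophil intervals such as that of Dnmt1 (-1.43 to 1.97) leave large changes undetectable.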
